A study of Mus musculus with 6 samples.

Results

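The genes described here encode 47 enzymes that break down amino acids, or the amines and sugars handled beside them, and were chosen from a list of symbols by the amino acid route each serves. All 47 had a probe set of their own among the 22180 genes tested, and where a gene had several (Sardh and Got2) the brightest over the 6 arrays stood for it. RNA came from kidneys of mice killed at 4 weeks, from 3 samples without Cre (Cre-negative) and 3 with it (Cre-positive), and each was run on 1 Affymetrix array. The growth notes name a conditional Pals1/Mpp5 line on a background spelled C56Bl/6 and a Six2-Cre transgene on a mixed background, and no treatment was given. Six2 regulatory sequence makes Cre in the progenitors of nephron epithelium, from which proximal tubules and podocytes come, and not in those of collecting duct, stroma or immune cells. How many conditional alleles either group carried, and whether each sample was a separate mouse, are not stated in the sources used here, so the p-values rest on the spread among these 6 samples, which may be technical. The series title names haplo-insufficiency of Pals1, the polarity scaffold that Mpp5 encodes, and the question addressed here is which amino acid routes differ between such kidneys and Cre-negative ones.

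The proximal tubule reclaims nearly all filtered amino acids and is, with the liver, a main site of their breakdown. Transaminases and oxidases first remove nitrogen, in mitochondria, peroxisomes or the cytosol. The carbon skeletons are then cut by dedicated dehydrogenases and carboxylases, most of them mitochondrial, into fragments that enter the citric acid cycle or glucose synthesis. Serine, glycine and the methyl groups of choline meanwhile supply the folate and methionine cycles.

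Values are the deposited log2 levels after RMA, so a difference of -1 is a 2-fold fall in signal. Levels of different probe sets are set beside each other only roughly, against the levels of all genes or those of absent transcripts. A difference is Cre-positive minus Cre-negative on the log2 scale, ± SE from limma with n = 3 per group, and a gene is called at a Benjamini-Hochberg adjusted p under 0.05 over all 22180 genes. Per-array values run from replicate 1 to replicate 3. The RMA medians of the 6 arrays lay between 5.55 and 5.64. Mpp5 itself had a mean of 8.10 ± 0.09 with Cre against 8.71 ± 0.06 without it (SD, n = 3 each), or 65.4% of the Cre-negative signal (limma adjusted p = 0.00232). Xist, transcribed from the inactive X of females, was present in 2 Cre-negative arrays (replicates 1 and 2) and in 0 Cre-positive arrays. Cre-negative replicate 3 is therefore the only male array of its group, and differences from it are given for some enzymes. Cre-negative replicate 2 held adrenal transcripts, with Cyp11b1 at 11.10 against 3.85 to 4.24 elsewhere. Cre-positive replicate 2 held muscle transcripts, with Myh4 at 7.72 against 3.93 to 4.86 elsewhere.

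Every enzyme of the 47 had a lower mean in Cre-positive kidneys. Of these, 37 were called lower and 0 higher, which is 78.7% of the enzymes, while 11.1% of all tested genes were called lower and 10.7% higher. No member was higher at an unadjusted p under 0.05 in limma either, and 41 were lower. The share of all genes past that looser cut was not counted. The groups did not overlap for 42 of 47 enzymes, against 38.5% of all tested genes. The median difference was -0.91 over the enzymes and -0.01 over all genes. In 4 enzymes the called fall was at least 4-fold, in 15 it was between 2-fold and 4-fold, and in 18 it was smaller. Of all tested genes 2.09% had a called fall of at least 2-fold. These are mostly abundant transcripts: 44 of the 47 had a mean level at or above the median of all genes. Among genes of that level alone, 22.5% were called lower, and 40 of the 44 enzymes were. With each array centred on its median, the split over all genes moved from 2372 higher and 2472 lower to 1861 and 3134, and 41 enzymes were called lower.

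**Figure D1:**
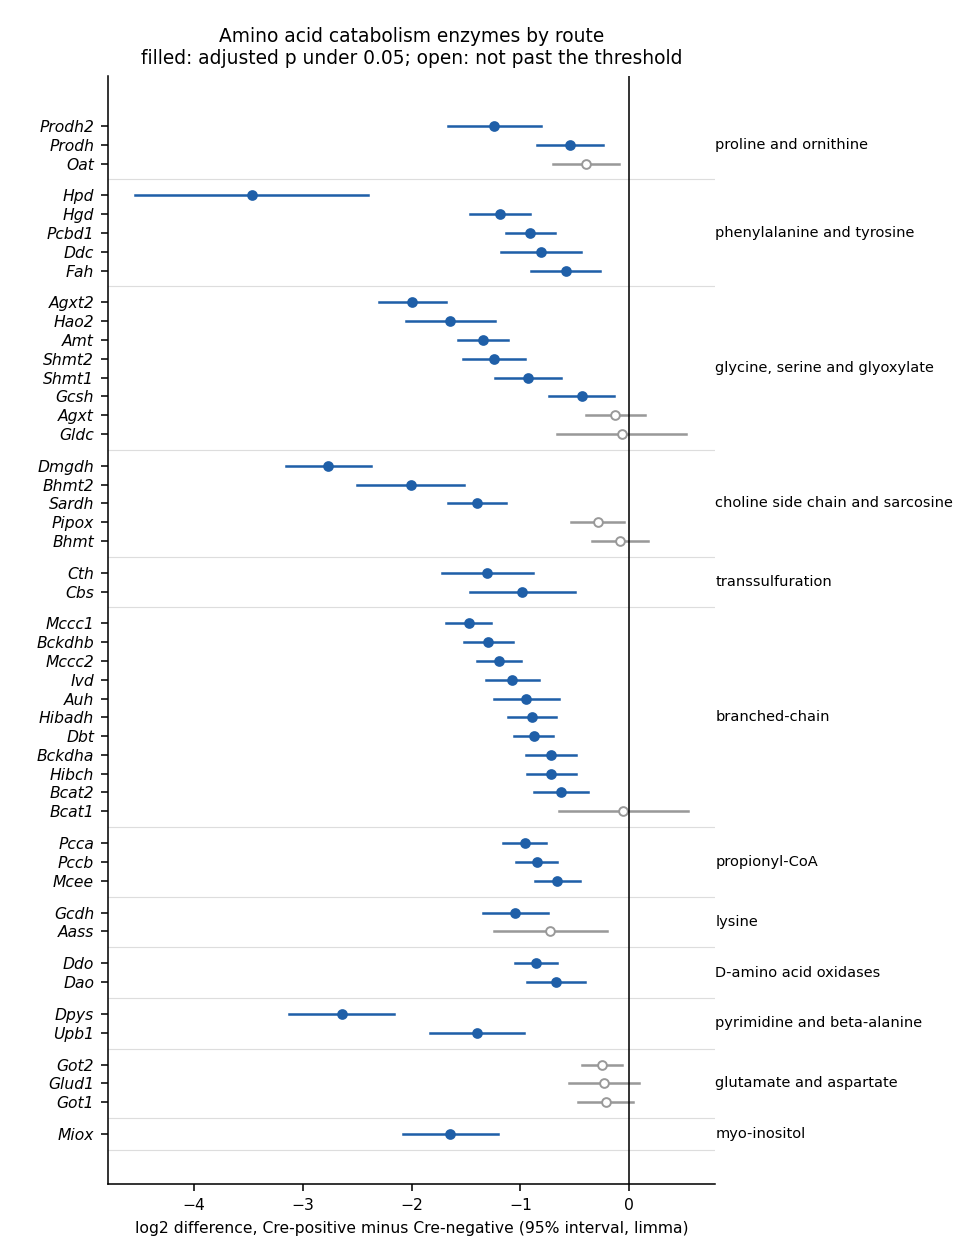
Log2 difference (Cre-positive minus Cre-negative) of each of the 47 enzymes with its 95% interval from limma, grouped by route; filled points are past an adjusted p of 0.05 and open points are not. Every point lies left of 0, from -3.47 for Hpd to -0.06 for Bcat1, and the 3 glutamate and aspartate enzymes are all open.

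**Figure D2:**
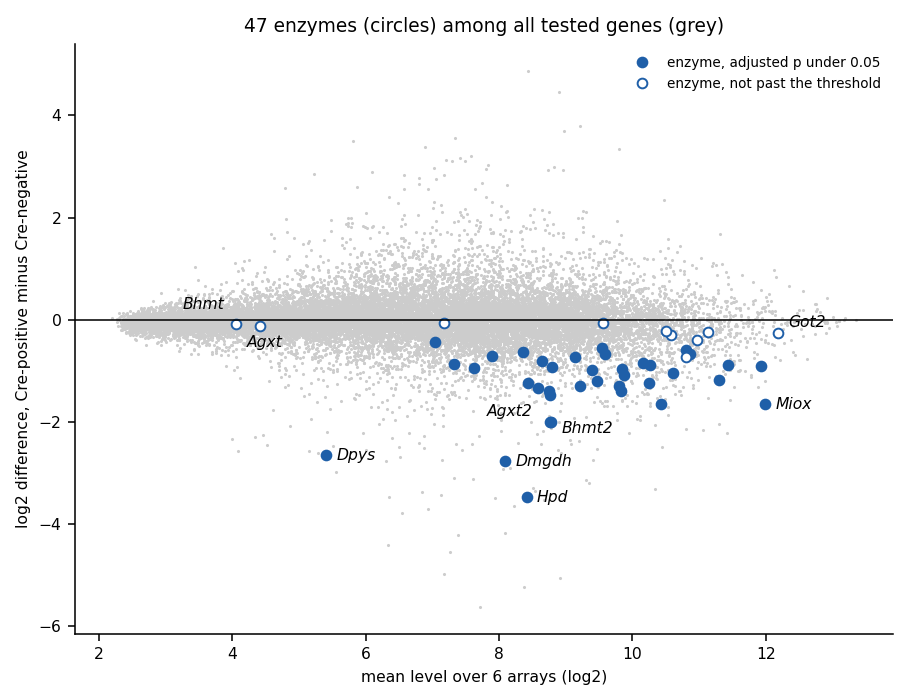
Mean log2 level over 6 arrays (horizontal) against log2 difference (vertical) for all 22180 tested genes in grey and the 47 enzymes as circles, filled where called. The enzymes lie mostly to the right, with a median level of 9.55 against 6.34 for all genes, and all lie below 0.

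RefSeq promoter windows (GRCm38.p6, 250 bases before to 50 after a start) were found for 44 of the 47 enzymes, and 4 stretches are shown because their genes fell together and carry letters or a layout of interest. Dmgdh and Bhmt2, which fell 6.80-fold and 4.02-fold, are divergent neighbours whose annotated starts lie 134 bases apart on chromosome 13, and capitals mark the 133 bases between them. For the other 3, capitals mark an exact match to letters typical of sites of HNF1 (GTTAATNAT) or HNF4 (CAAAGTCCA), transcription factors of proximal tubule cells, searched on both strands. Each sequence is the 150 bases before a start, read 5′ to 3′ on the + strand.
Dmgdh, chr13:93674286-93674435: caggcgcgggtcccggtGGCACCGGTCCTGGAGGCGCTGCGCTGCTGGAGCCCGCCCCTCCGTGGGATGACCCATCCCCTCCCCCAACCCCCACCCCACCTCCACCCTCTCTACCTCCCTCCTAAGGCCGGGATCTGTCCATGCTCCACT
Pcbd1, chr10:61089181-61089330: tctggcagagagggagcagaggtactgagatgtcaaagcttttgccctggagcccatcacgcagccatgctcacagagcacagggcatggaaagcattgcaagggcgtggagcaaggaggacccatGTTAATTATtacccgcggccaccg
Prodh2, chr7:30493508-30493657: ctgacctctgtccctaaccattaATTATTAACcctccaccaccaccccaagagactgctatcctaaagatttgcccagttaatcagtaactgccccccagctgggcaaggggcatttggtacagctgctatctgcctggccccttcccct
Agxt2, chr15:10358383-10358532: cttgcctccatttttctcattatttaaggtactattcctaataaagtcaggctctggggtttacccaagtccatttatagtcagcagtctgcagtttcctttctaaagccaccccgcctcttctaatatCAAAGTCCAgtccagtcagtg

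The HNF1 letters occurred in the windows of 3 of the 44 enzymes (Pcbd1, Prodh2 and Got2) and in those of 0.859% of the 16990 tested genes with a window. The HNF4 letters occurred in those of 2 enzymes (Agxt2 and Pipox) and in those of 0.541% of these genes. 3 of these 5 genes were called lower, and Got2 and Pipox were not. A match describes the letters alone.

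In the phenylalanine and tyrosine route 5 of 5 enzymes were called lower. Of 3 further genes of that route, Qdpr was called lower, while Tat, the aminotransferase that starts tyrosine breakdown, and Gch1, of pterin synthesis, had differences of 0.33 ± 0.21 and 0.19 ± 0.16 and did not pass, both at low levels. Hpd, the dioxygenase that turns hydroxyphenylpyruvate into homogentisate, showed the largest fall of the 47. It stood at 10.93, 10.56 and 8.97 in Cre-negative arrays and at 7.10, 6.40 and 6.57 in Cre-positive arrays. The difference was -3.47 ± 0.46, leaving 9.05% of the Cre-negative signal (limma adjusted p = 0.00174). The groups did not overlap, but the male Cre-negative array was far below the other Cre-negative arrays, and against it alone the Cre-positive mean differed by -2.28, with limma adjusted p = 0.0133 on male arrays alone.

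Hgd, the dioxygenase that opens the ring of homogentisate, fell 2.28-fold, from 11.92, 11.80 and 11.93 to 10.91, 10.48 and 10.70 (limma adjusted p = 0.000559). Fah, the hydrolase that ends the route and whose loss causes tyrosinaemia, differed by -0.58 ± 0.14, from 11.02, 11.04 and 11.22 to 10.76, 10.25 and 10.52. Its call was lost with sex as a second factor (limma adjusted p = 0.0734), and also without Cre-negative replicate 1 or 3. Pcbd1 encodes the dehydratase that recycles the pterin cofactor of phenylalanine hydroxylase and is also a dimerization cofactor of HNF1. It stood at 12.36, 12.42 and 12.35 in Cre-negative and at 11.31, 11.50 and 11.59 in Cre-positive arrays, 53.3% of the Cre-negative signal (limma adjusted p = 0.000708). Ddc, the decarboxylase with which proximal tubules make dopamine, differed by -0.81 ± 0.16, a call that was also lost with the sex term (limma adjusted p = 0.144).

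In the glycine, serine and glyoxylate route 6 of 8 enzymes were called lower. Agxt2, a mitochondrial transaminase that disposes of beta-aminoisobutyrate and of asymmetric dimethylarginine, had the largest fall there. Its values were 9.73, 9.59 and 9.95 in Cre-negative and 7.86, 7.54 and 7.90 in Cre-positive arrays, 25.1% of the Cre-negative signal (limma adjusted p = 0.000102). The groups stood well apart in all 6 arrays. Hao2, a peroxisomal oxidase of hydroxy acids, fell 3.13-fold, from 11.41, 11.49 and 10.85 to 9.59, 9.44 and 9.78. The male Cre-negative array was again the lowest of its group, and the difference from it was -1.25.

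The glycine cleavage system, a mitochondrial complex that splits glycine and hands a carbon to folate, had 3 listed subunits, of which Amt and Gcsh were called lower. Amt, its aminomethyltransferase, fell 2.53-fold, from 9.33, 9.27 and 9.18 to 8.04, 7.77 and 7.95 (limma adjusted p = 0.00015). Gcsh, the lipoyl carrier protein, stood at 7.17, 7.17 and 7.45 against 6.90, 6.97 and 6.61 and differed by -0.44 ± 0.13 (limma adjusted p = 0.0457). That call was lost in 12 of its 17 alternatives, over which the limma adjusted p ran from 0.0218 to 0.139. Gldc, the decarboxylase, did not pass, with 9.59, 9.64 and 9.56 in Cre-negative and 10.21, 9.16 and 9.21 in Cre-positive arrays. Cre-positive replicate 1 lay above all Cre-negative arrays for Gldc while the other Cre-positive arrays lay below them. Without that array Gldc differed by -0.41 and was called (limma adjusted p = 0.0189). Whether the subunits differ from each other in their change was not tested.

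Both serine hydroxymethyltransferases, which pass the carbon of serine to folate, were called lower. The mitochondrial Shmt2 fell from 10.73, 10.89 and 10.98 to 9.75, 9.40 and 9.73, a 2.37-fold fall, and the cytosolic Shmt1 differed by -0.93 ± 0.13. Shmt1 was lower in the male Cre-negative array than in the female ones (9.43 and 9.33), and its difference from the male array was -0.68, a call lost on male arrays alone (limma adjusted p = 0.0804). Agxt, the glyoxylate transaminase of liver peroxisomes, was at 4.48 ± 0.14 (SD, n = 3) and 4.36 ± 0.17 (SD, n = 3) and did not pass. That is close to the mean of the Y-linked genes in arrays with Xist, 3.96 and 4.30, a level at which a change may go unseen.

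**Figure D3:**
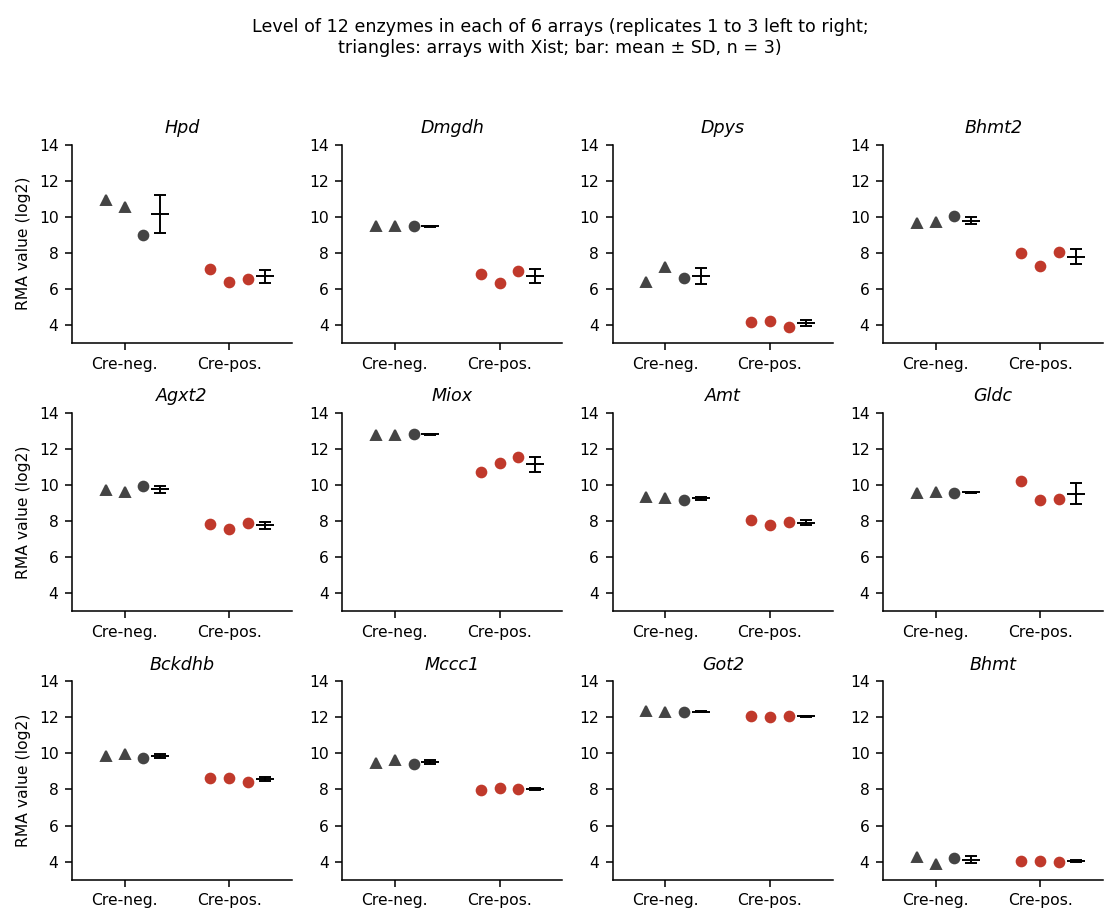
RMA level (log2) of 12 enzymes in each of the 6 arrays, Cre-negative in grey and Cre-positive in red, replicates 1 to 3 from left to right, triangles for arrays with Xist, and mean ± SD (n = 3) as bars. Dmgdh, Agxt2, Amt, Bckdhb and Mccc1 separate cleanly, Hpd has a low male Cre-negative array at 8.97, Gldc has 1 high Cre-positive array at 10.21, and Bhmt stays near 4.

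The choline side chain and sarcosine route held some of the largest falls, with 3 of 5 enzymes called lower. Bhmt2, a methyltransferase that remethylates homocysteine from S-methylmethionine, stood at 9.65, 9.68 and 10.03 in Cre-negative and at 8.01, 7.29 and 8.05 in Cre-positive arrays (limma adjusted p = 0.00066). Dmgdh, the mitochondrial dehydrogenase that demethylates dimethylglycine, was at 9.46, 9.47 and 9.49 against 6.82, 6.30 and 7.01. Its Cre-negative values were nearly identical, and 14.7% of that signal was left (-2.76 ± 0.17, limma adjusted p = 8.1e-05). Sardh, which demethylates sarcosine, fell 2.63-fold, from 10.40, 10.41 and 10.76 to 9.17, 9.11 and 9.11.

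Pipox, a peroxisomal oxidase of sarcosine and pipecolate, was at 10.69, 10.61 and 10.89 against 10.51, 10.32 and 10.49 and did not pass (limma adjusted p = 0.0902). Bhmt, the betaine-dependent counterpart of Bhmt2, which makes dimethylglycine and is a liver enzyme, lay between 3.89 and 4.23 in all 6 arrays, again near the level of absent Y-linked transcripts. In transsulfuration, which turns homocysteine into cysteine, both enzymes were called lower. Cth, cystathionine gamma-lyase, fell from 10.44, 10.54 and 10.38 to 9.54, 8.77 and 9.13, and Cbs, cystathionine beta-synthase, differed by -0.98 ± 0.21. The call of Cbs was lost without Cre-positive replicate 2. Cbs was higher in the male Cre-negative array (10.35) than in the others (9.72 and 9.58), and its difference from that array was -1.45.

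Branched-chain amino acid breakdown was the largest route, and 10 of its 11 enzymes were called lower, with a median of -0.89. Bcat2, the mitochondrial transaminase that starts it, fell from 8.73, 8.81 and 8.48 to 8.03, 8.09 and 8.02, a call lost with the sex term (limma adjusted p = 0.0789). Bcat1, the cytosolic transaminase, did not pass (-0.06 ± 0.26). Its Cre-negative values were 7.08 and 6.78 in the female arrays and 7.77 in the male array, a range that enclosed all Cre-positive values, and the difference from the male array was -0.62.

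The branched-chain ketoacid dehydrogenase complex commits the skeletons to oxidation, and its 3 listed subunits were called lower. Bckdhb, the beta subunit of the decarboxylase, fell 2.45-fold, from 9.88, 9.96 and 9.76 to 8.63, 8.65 and 8.44 (limma adjusted p = 0.000167). Dbt, the transacylase core, stood at 10.69, 10.69 and 10.71 against 9.84, 9.77 and 9.84, and differed by -0.88 ± 0.08. Bckdha, the alpha subunit, differed by -0.72 ± 0.10. The 3 subunits thus kept between 40.8% and 60.8% of the Cre-negative signal.

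On the leucine branch, Mccc1 and Mccc2, the subunits of methylcrotonyl-CoA carboxylase, fell together. Mccc1 went from 9.48, 9.62 and 9.42 to 7.99, 8.09 and 8.01 (limma adjusted p = 8.1e-05), and Mccc2 from 10.11, 10.08 and 9.98 to 8.90, 8.77 and 8.93. Replicates of a group lay close together beside the differences of -1.48 ± 0.09 and -1.20 ± 0.09. Ivd, isovaleryl-CoA dehydrogenase, differed by -1.07 ± 0.11, and Auh, the hydratase after the carboxylase, by -0.95 ± 0.13. On the valine branch Hibch, a hydrolase, differed by -0.72 ± 0.10 and Hibadh, a dehydrogenase, by -0.89 ± 0.10. Propionyl-CoA, made from valine, isoleucine and other precursors, is carboxylated by Pcca and Pccb and epimerized by Mcee, and all 3 were called lower. Pcca fell from 10.30, 10.26 and 10.40 to 9.36, 9.42 and 9.30, Pccb differed by -0.85 ± 0.08 and Mcee by -0.66 ± 0.09.

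The remaining routes had 1 to 3 enzymes each. Dpys, the dihydropyrimidinase that opens the ring of reduced uracil and thymine, stood at 6.35, 7.21 and 6.63 in Cre-negative and at 4.16, 4.22 and 3.90 in Cre-positive arrays. The fall of 6.24-fold (limma adjusted p = 0.000199) may be understated, since the Cre-positive values reach the level of absent transcripts. Upb1, which next releases beta-alanine or beta-aminoisobutyrate, fell from 9.41, 9.42 and 9.52 to 8.49, 7.68 and 7.97. Miox, the oxygenase that opens myo-inositol and is made mainly in the proximal tubule, fell from 12.80, 12.80 and 12.83 to 10.73, 11.21 and 11.56, to 32.0% of the Cre-negative signal (limma adjusted p = 0.000909).

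In proline and ornithine breakdown, Prodh2, which oxidizes hydroxyproline, fell 2.36-fold, from 9.40, 9.08 and 8.69 to 7.70, 7.70 and 8.05. On male arrays alone it differed by -0.87 and was not called (limma adjusted p = 0.0623). Prodh, the proline dehydrogenase, differed by -0.55 ± 0.13 (limma adjusted p = 0.0217), a call lost in 8 of 17 alternatives, among them the sex term and leaving out any single array except Cre-positive replicate 1. Oat, ornithine aminotransferase, did not pass (limma adjusted p = 0.0649). Its values were 11.31, 11.32 and 10.88 against 10.83, 10.77 and 10.71, so that the male Cre-negative array lay near the Cre-positive ones (a difference of -0.11 from it) and apart from its own group. Without that array Oat was called, and so it was in some alternatives that kept it, such as median centring (limma adjusted p = 0.0427). In 12 of its 17 alternatives Oat was not called.

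In lysine breakdown Gcdh, glutaryl-CoA dehydrogenase, fell from 11.12, 11.08 and 11.19 to 10.33, 9.84 and 10.09. Aass, the bifunctional synthase at the head of that route, was at 11.10, 11.01 and 11.37 against 10.94, 9.99 and 10.38 and did not pass (limma adjusted p = 0.0554). Without Cre-positive replicate 1 it was called (-0.98, limma adjusted p = 0.0069). The peroxisomal oxidases of D-amino acids, Dao for neutral and Ddo for acidic ones, were both called lower, by -0.67 ± 0.12 and -0.86 ± 0.08. Ddo had Cre-negative values of 7.76, 7.76 and 7.75 and Cre-positive values of 6.97, 6.91 and 6.80.

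The enzymes that join amino acid nitrogen to the citric acid cycle formed the only route of 2 or more enzymes without a call. Got2, the mitochondrial aspartate aminotransferase, stood at 12.33, 12.27 and 12.32 against 12.05, 12.02 and 12.10. Its groups did not overlap, but its difference was only -0.25 ± 0.08 (limma adjusted p = 0.0564, and 0.015 to 0.384 over its alternatives). The cytosolic Got1 was at 10.58, 10.68 and 10.60 against 10.51, 10.50 and 10.19, and Glud1, glutamate dehydrogenase, at 11.33, 11.24 and 11.19 against 11.33, 10.81 and 10.92. Their 95% intervals, from -0.47 to 0.03 and from -0.55 to 0.09, allow falls as large as their lower ends. Without Cre-positive replicate 1 Glud1 was called (-0.39, limma adjusted p = 0.0317).

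By compartment, 22 of 27 mitochondrial, 12 of 15 cytosolic and 3 of 5 peroxisomal enzymes were called lower, with medians of -0.89, -0.98 and -0.67. The Cre-positive arrays were not alike: 26 of the 47 enzymes were lowest in Cre-positive replicate 2 and 28 were highest in Cre-positive replicate 1. Without both second replicates, which held the adrenal and muscle transcripts, 30 enzymes were called lower, and of all 22180 genes 974 in place of 2472. With sex as a second factor 32 of the 37 calls held, those of Prodh, Fah, Ddc, Gcsh and Bcat2 being lost. Of all genes 1121 were then called lower. On male arrays alone (3 against 1) further calls were lost, and the median difference of the enzymes was -0.87. All 37 kept their direction in both, but these are not separate checks. Cre-negative replicate 3 is the only male control, so both fits give the same difference, the Cre-positive mean minus that array. The calls with the sex term thus rest on that array too. For 45 of the 47 enzymes the male Cre-negative array lay above all Cre-positive arrays, but the share of all genes with that order was not counted.

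For 6 pairs of related enzymes the difference in log2 value within each array was compared between groups, which asks whether 1 of a pair changed more. In an exact two-sided permutation test 3 against 3 arrays cannot give less than p = 0.10. With the 6 arrays as deposited only Bhmt minus Bhmt2 reached it (exact p = 0.10, adjusted over the 6 pairs 0.40). It rose by 1.92 from a range of -5.84 to -5.41 to one of -4.09 to -3.24 (n = 3 each), with Bhmt near background throughout. Prodh minus Prodh2 rose by 0.69 and Bcat1 minus Bcat2 by 0.57, with overlapping groups (exact p = 0.20 and 0.30). For Shmt1 minus Shmt2 the change was 0.31, for Dao minus Ddo 0.19 and for Got1 minus Got2 0.03 (exact p = 0.20, 0.50 and 0.80). Leaving out 1 array moved Bcat1 minus Bcat2 between 0.29 (without Cre-negative replicate 2) and 0.95 (without Cre-negative replicate 3). Prodh minus Prodh2 ran from 0.49 (without Cre-positive replicate 1) to 0.90 (without Cre-negative replicate 3). Shmt1 minus Shmt2 ran from 0.13 (without Cre-negative replicate 3) to 0.47 (without Cre-negative replicate 1), and Dao minus Ddo from 0.06 (without Cre-positive replicate 3) to 0.27 (without Cre-positive replicate 1). With the arrays normalised by quantiles a second time, Dao minus Ddo rose by 0.31 (exact p = 0.10). Without Cre-negative replicate 3, Prodh minus Prodh2 and Bcat1 minus Bcat2 also had an exact p of 0.10. None of the 6 pairs passed, which does not show that their members changed alike.

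Further genes of the same routes, and of histidine breakdown, were listed beside the 47. Of 59 listed, 50 had a probe set of their own, and 31 of these were called lower, 0 higher and 19 neither, with a median of -0.71. The difference was below 0 in 42 and above 0 in 8. In the other direction 2 were higher at an unadjusted p under 0.05 in limma, a cut for which the share of all genes was not counted. With eBayes trend and robust settings 1 was called higher. The largest fall was that of Aadat, an aminotransferase of aminoadipate in lysine breakdown (-2.15 ± 0.17), followed by Abat, which transaminates beta-alanine and GABA (-1.53 ± 0.09). Aldh4a1, the step after Prodh, differed by -1.34 ± 0.08, Acat1, the last thiolase of isoleucine breakdown, by -1.34 ± 0.12, and Aldh5a1, the dehydrogenase after Abat in GABA breakdown, by -1.30 ± 0.08. Dld, the lipoamide dehydrogenase shared by the glycine and branched-chain complexes, differed by -1.08 ± 0.08.

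Methylmalonyl-CoA mutase (Mmut), which acts after Mcee, differed by -1.23 ± 0.08, Mmab, which makes its cobalamin cofactor, by -1.17 ± 0.14, and Aldh6a1, the dehydrogenase that makes propionyl-CoA from valine, by -1.06 ± 0.16. The other falls of at least 2-fold were those of Srr, serine racemase (-1.10 ± 0.09), Glyctk, glycerate kinase (-1.30 ± 0.15), Grhpr, glyoxylate reductase (-1.01 ± 0.12), Gnmt, glycine N-methyltransferase (-1.13 ± 0.15), Suox, sulfite oxidase (-1.06 ± 0.12), Qdpr, which regenerates the pterin cofactor (-1.07 ± 0.12), Uroc1, urocanase (-1.18 ± 0.16), and Dhtkd1, a dehydrogenase subunit of lysine breakdown (-1.10 ± 0.19). The 8 genes with positive differences were named after their values were seen, and none of the 8 was called. They were Aldh18a1 of proline synthesis (0.51 ± 0.16, limma adjusted p = 0.0551), Phgdh and Psat1 of serine synthesis (0.48 ± 0.16 and 0.39 ± 0.18), Tat and Gch1, Cdo1, cysteine dioxygenase (0.26 ± 0.16), Hal, histidine ammonia-lyase (0.16 ± 0.10), and Glul, glutamine synthetase (0.09 ± 0.11). Psph, also of serine synthesis, had a difference of -0.20 ± 0.13.

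Cell type markers moved in the same arrays, and in bulk kidney RNA fewer cells of a type and less RNA per cell cannot be told apart. Of 11 measured proximal tubule markers 8 were called lower and 0 higher. Their mean log2 level was 11.94 to 12.03 in Cre-negative and 10.92 to 11.09 in Cre-positive arrays, and the median difference was -0.79. The transporter Slc5a2 differed by -2.49 and the endocytic receptor gene Lrp2 by -1.11, whereas Slc4a4 (-0.12), Slc27a2 (-0.18) and Aqp1 (-0.21) were not called. Hnf4a was called lower (limma adjusted p = 0.0322). Of the 47 enzymes, 29 had a difference below the proximal marker median. Called lower too were 3 of 3 podocyte, 3 of 3 distal convoluted tubule and 3 of 4 intercalated cell markers. Their median differences were -1.27, -0.78 and -0.74, so falls of this size were not particular to proximal tubule markers. Of 4 thick limb markers 1 was called lower and 1 higher. Of 7 macrophage markers 6 were called higher, their mean going from 7.40 to 7.59 up to 8.52 to 9.64. Of 4 fibroblast markers 3 were called higher, their mean going from 9.40 to 9.57 up to 10.01 to 10.93, and so were 3 of 4 principal cell markers. Among hepatocyte markers Alb was called lower (-1.31 ± 0.34, limma adjusted p = 0.0289) and the others did not pass. The mean of the whole list was 4.69 to 4.93 against 4.32 to 4.62, with Cyp7a1 between 2.94 and 3.21 in all arrays. The part of any of these markers in the enzyme differences was not tested.

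**Figure D4:**
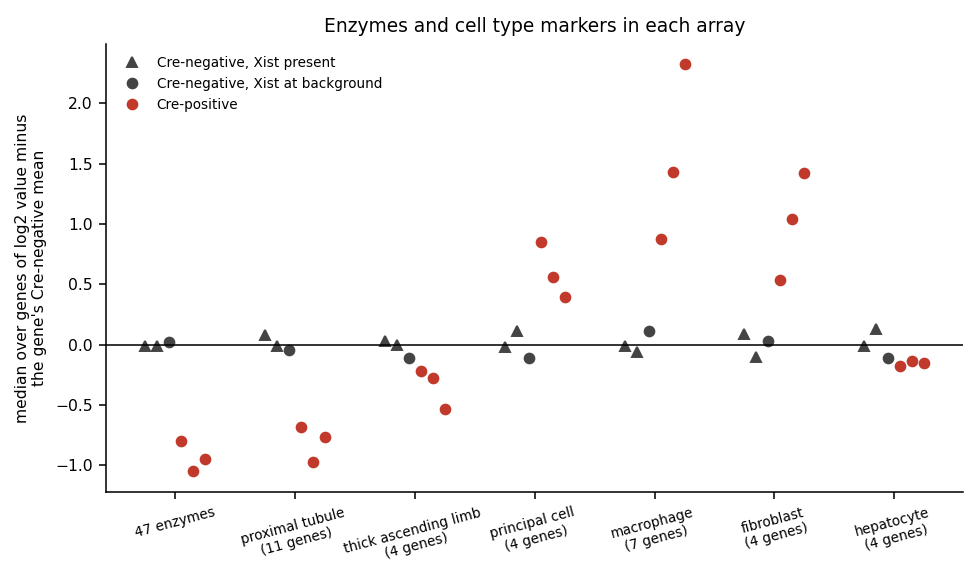
For each array, the median over genes of the log2 value minus the gene's Cre-negative mean, for the 47 enzymes and for 6 lists of cell type markers; triangles are arrays with Xist, grey is Cre-negative and red is Cre-positive. The enzymes lie between -1.05 and -0.80 in Cre-positive arrays, beside -0.98 to -0.68 for proximal tubule markers and 0.88 to 2.32 for macrophage markers. Podocyte, distal convoluted tubule and intercalated cell markers, whose median differences were also negative, are not drawn.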

How the data were processed

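Kidney RNA of 6 samples was hybridised to Affymetrix arrays, 1 per sample. The values deposited by the authors are log2 levels from RMA, a method that subtracts background, equalises the arrays' distributions by quantiles and combines the probes of a set. The submitters' processing notes give RMA and Partek and no version of either, and the sources used here give neither genome build nor annotation. Of 41345 rows, 23521 had exactly 1 gene symbol in GEO's platform annotation, 1814 several and 16010 none, and the last 2 kinds were left out. There were 0 columns of other samples. Scanner files were not used here, so background and batch could not be varied, and the number of arrays limits the precision.

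The comparison used limma 3.58.1 under R 4.3.3, with lmFit, eBayes and two-sided tests adjusted over 22180 genes, and neither covariates nor a filter on low values. On simulated data of that size limma called 17% of 100 genes changed by 0.5 and 86% of 50 changed by 1 (log2 units). It called 96% of 50 changed by 2, with 6 false calls among unchanged genes. Only 200 genes were changed there, while 2372 were called higher and 2472 lower in the data. The adjusted p depends on that share, so these rates need not hold for these data. Sex was read from Xist against the Y-linked genes. Same-numbered arrays did not deviate together (r = 0.03, -0.04 and -0.01), which does not exclude a pairing. The labels do not say whether replicate numbers pair samples. All 47 enzymes and, of the further route genes, called ones with the 8 smallest p or at least 2-fold are named by rule. Members, lists and alternatives were chosen with earlier results of these data known. Tables and figures used Python 3.11.15, pandas 2.3.3 and matplotlib 3.10.9.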

Additional observations from a re-analysis of the deposited data

How the results depend on the processing

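The count of 37 enzymes called lower stayed between 30 and 41 in all alternatives but male arrays alone, where it was 24 and that of further route genes 20 in place of 31; that fit has 3 arrays against 1, with the lone array assumed to vary like the others. All 37 kept their direction in every alternative (36 without genes below the median level, where Dpys was not tested). Leaving out 1 array gave 34 to 39 enzymes, with 1660 to 2615 of all 22180 genes called lower. Male arrays set aside, genes called lower ran from 974 (without both second replicates) to 3134 (median centring) over the alternatives. The median of -0.91 became -0.97 with median centring and lay between -0.96 and -0.87 otherwise. Further route genes called higher were 0, but 2 without genes below the median level, 1 with eBayes trend and robust, 1 with array weights and 0 to 1 when 1 array was left out. Got1 minus Got2, near 0, turned to -0.00491 when a gene's rows were averaged, and ran from -0.0377 to 0.157 when 1 array was left out; the cause was not tested. With the replicate block 37 enzymes were called, without Gcsh and with Aass, though the labels do not say whether the numbers pair samples. Levels near 4 limit Agxt, Bhmt and, in Cre-positive arrays, Dpys.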
